A study of Mus musculus with 4 samples.

Results

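Trpm8 Foxp2 neurons are a class of dorsal root ganglion (DRG) neurons whose members were chosen here by counts measured in single cells. A cell was a member when Trpm8 reached 1 unique molecular identifier (UMI) per 10000 UMIs of the cell (CP10K) and at least 1 Foxp2 UMI was present, among cells with at least 1500 genes, at most 10% mitochondrial UMIs and at least 5000 UMIs. Of 17836 such cells, 471 were members (2.64%), namely 132 and 167 in the sham libraries (Male-Sham, then Female-Sham) and 81 and 91 in the CCI libraries (Male-CCI, then Female-CCI), and every series of 4 values below keeps this order. Of the cells that reached the limit on Trpm8, 57 lacked a Foxp2 UMI and were left out. CCI is chronic constriction injury, in which the sciatic nerve is tied loosely, here on both sides, and sham mice had the operation without it. Cells came from L4 and L5 DRGs of C57BL/6 mice aged 7 to 8 weeks, taken on day 7 and sorted for GFP. Mice of all groups were heterozygous PirtEGFPf knock-ins, in which EGFPf takes the place of the Pirt coding sequence, so that all kept 1 intact copy of Pirt, a regulator of sensory TRP channels. Each library pooled 20 DRGs of 5 mice of 1 sex, so that each surgery had 2 replicates, 1 of each sex. Littermates had the same surgery, so litter and surgery cannot be told apart.

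Trpm8 is the cation channel that opens on cooling and to menthol. The neurons that use it report cool and cold temperatures and form a small class among DRG neurons. Penk encodes the precursor of enkephalins, which are opioid peptides, Kcnk9 encodes the two-pore potassium channel TASK-3, which carries a resting leak current, and Foxp2 is a forkhead transcription factor. Sprr1a is switched on in injured sensory neurons, and the study used it to tell injured from uninjured neurons.

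Trpm8 lies on mouse chromosome 1 (GRCm38, chr1:88277661-88389293, plus strand), and Hjurp is its neighbour on the minus strand (chr1:88262471-88277633). In the GENCODE annotation the outermost starts of the genes are 28 bases apart, head to head. The Trpm8 transcript that begins there is annotated without a coding sequence, and the RefSeq starts of Trpm8 and Hjurp are 29156 bases apart. Hjurp encodes the chaperone that loads the centromeric histone CENP-A. Their promoters are shown because both genes were among the highest in members relative to other neurons, while Hjurp fell after CCI. Each sequence holds 250 bases before and 50 bases after the RefSeq start on the strand of the gene (GRCm38.p6), and capitals mark the bases after the start.
Trpm8, chr1:88306485-88306784, plus strand: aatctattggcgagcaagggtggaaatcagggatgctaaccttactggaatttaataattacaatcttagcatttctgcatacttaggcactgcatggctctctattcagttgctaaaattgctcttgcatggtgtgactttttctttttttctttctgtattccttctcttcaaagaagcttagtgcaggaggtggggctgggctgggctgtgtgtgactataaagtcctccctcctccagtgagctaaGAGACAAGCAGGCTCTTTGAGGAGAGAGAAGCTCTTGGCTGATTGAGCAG
Hjurp, chr1:88277530-88277829, minus strand: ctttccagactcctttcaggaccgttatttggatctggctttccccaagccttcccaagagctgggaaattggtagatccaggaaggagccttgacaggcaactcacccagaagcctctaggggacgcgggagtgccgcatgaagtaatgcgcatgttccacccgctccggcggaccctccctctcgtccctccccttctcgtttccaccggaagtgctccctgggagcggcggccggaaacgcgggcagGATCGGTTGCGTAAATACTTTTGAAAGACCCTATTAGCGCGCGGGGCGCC
The Trpm8 promoter holds 1 CG dinucleotide and that of Hjurp 22, against a median of 7 over 27025 RefSeq promoters of this length. The letters TATAAA, searched on both strands, are in the Trpm8 window and not in the Hjurp window, and 14.2% of the promoters hold them.

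The label was checked against its markers in sham. Trpm8 had a lowest, median and highest level of 1.02, 1.80 and 5.44 CP10K in members of Male-Sham and of 1.01, 1.78 and 12.04 CP10K in those of Female-Sham. Penk and Kcnk9 were not part of the rule. Penk was detected in 56.1% and 43.1% of sham members against 3.2% and 3.4% of other neurons, and Kcnk9 in 76.5% and 69.5% against 6.2% and 6.6%. In cells with the markers of satellite glia (SGC-like cells), which should lack Penk, no Penk UMI was found in 99 and 51 sham cells. A count of 0 allows up to 3.03% and 5.88% of these cells to hold a UMI, which is no limit on cells that express Penk, since their median depths were 6947 and 6207 UMIs against 28643.5 and 21890 in members. All 471 members passed the limit set on neuronal markers. Both markers outside the rule were thus far more frequent in members than in other neurons, although many members had no Penk UMI.

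Levels are given as UMIs of a gene per 1000000 UMIs summed over the cells of a library (CPM), a scale that carries no gene length because 3' tags were counted. Genes that stood out in members of sham are given as a description, since the cells were selected on their own counts. Among 3216 genes with at least 50 CPM in members of both sham libraries, 22 were at least 10-fold and 46 at least 5-fold higher in members than in other neurons. Trpm8 led with 84.98-fold and Penk followed with 50.4-fold. Cpxm2, a carboxypeptidase-like protein, was at 69.2 and 58.8 CPM in members against 1.54 and 2.15 CPM in other neurons. Slc34a2, a sodium phosphate cotransporter, was 30.4-fold higher, Foxp2 23.1-fold, Kcnk9 21.2-fold and Hjurp 19.1-fold. Gpr26, an orphan receptor, was at 155 and 133 CPM against 9.09 and 9.08 CPM. The remaining 12 of the 20 leading genes included the calcium-binding proteins Hpca, Cpne5 and S100a4, the phospholipase Plcd4, the adhesion molecules Cdh8 and Ntm, the potassium channel Kcnh8 and the synaptic or channel-associated proteins Syndig1, Cacng5 and Gsg1l, besides Ociad2 and Ndst4. Hjurp (801 and 750 CPM) and Hpca (574 and 541 CPM) were the most abundant of the 20.

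**Figure D1:**
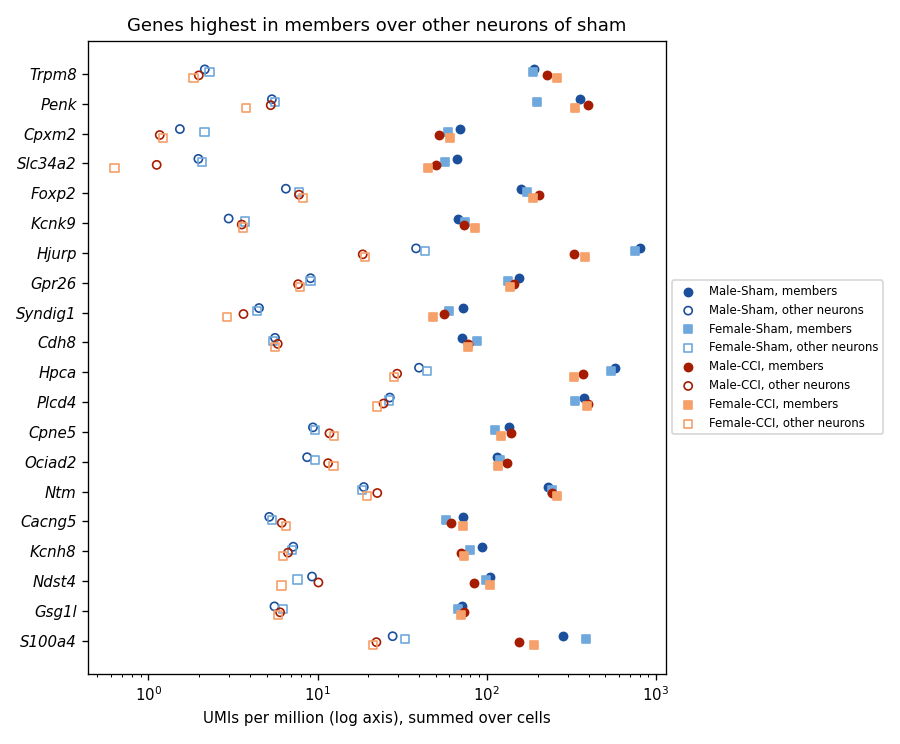
Levels of the 20 genes with the largest ratio of members to other neurons in sham, in CPM on a log axis, for members (filled) and other neurons (open) of each library, with Sprr1a-low cells of CCI. For each gene every filled point lies to the right of every open point, and Hjurp is the gene whose CCI points (328 and 380) lie farthest from its sham points (801 and 750).

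Members varied widely among themselves in Penk and in Calca, the precursor of CGRP. Penk reached 31.58, 28.70, 29.74 and 43.56 CP10K, yet was detected in only 56.1, 43.1, 75 and 54.4% of members (Sprr1a-low in CCI). Calca reached 28.12, 138.80, 31.53 and 15.36 CP10K around medians of 1.30, 1.73, 0.46 and 1.56. Tac1, the precursor of substance P, was in nearly all members (99.2, 100, 100 and 100%), with medians of 20.66, 20.11, 15.44 and 20.13 CP10K. Across the cells of a library, Spearman's rho of Penk and Calca was -0.45, -0.27, -0.42 and -0.66 over 132, 167, 80 and 90 cells. Cells of a library share their preparation and differ in depth, with a rho of Penk to the UMI total of -0.10, -0.02, -0.35 and -0.24, so the values are descriptions. Between the neighbours Trpm8 and Hjurp rho was -0.08, -0.10, 0.04 and 0.13.

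Members with a Penk UMI were also set beside members without one, a split chosen after its values were seen and given without a test. There were 74, 72, 60 and 49 members with and 58, 95, 20 and 41 without. Gal, the precursor of galanin, was at 77.5, 109, 94.03 and 137 CPM with Penk and at 354, 442, 318 and 568 CPM without. Gal was thus lower with Penk in 4 of 4 libraries. S100a4 was lower with Penk in 4 of 4 libraries as well, at 179, 252, 104 and 76.01 against 402, 496, 266 and 289 CPM. Hjurp (673, 731, 305 and 357 against 956, 765, 380 and 400 CPM), Kcnk9, Gpr26 and Cpxm2 had the same direction in 4 of 4 libraries. The direction was thus not particular to Gal and S100a4, and its share over all genes was not computed. The levels of Trpm8, at 208, 209, 242 and 313 against 170, 170, 192 and 215 CPM, and of Foxp2, at 140, 153, 194 and 166 against 181, 187, 224 and 206 CPM, are constrained by the rule and nothing is read from them. Calca was lower with Penk in 3 of 4 libraries, the exception being Female-Sham with 640 against 534 CPM, and Tac1 kept no single direction. Members with Penk had median depths of 24958, 22545, 23088.5 and 19052 UMIs and those without of 30268.5, 21890, 36948 and 26101 UMIs, and the part of depth in the split was not tested.

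**Figure D2:**
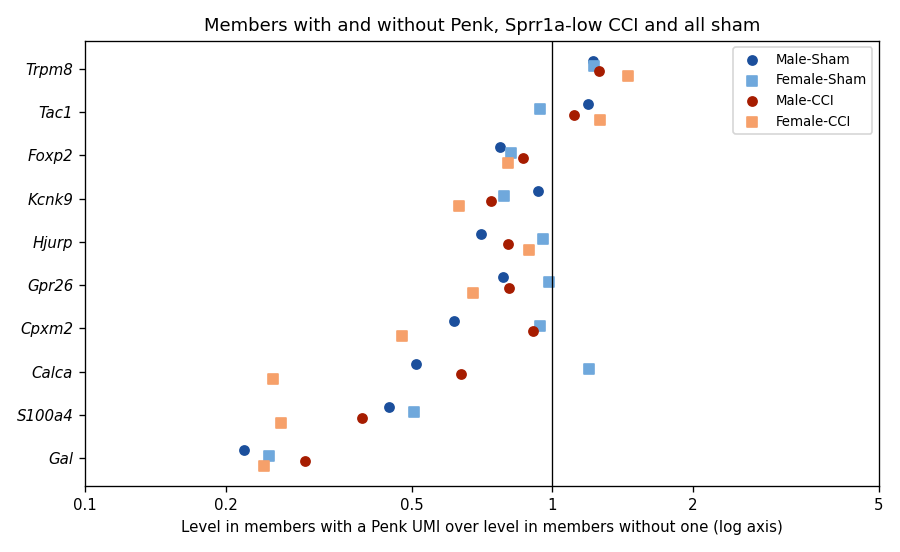
Ratio of the level in members with a Penk UMI to that in members without one, on a log axis, for each gene and library (Sprr1a-low members in CCI). Gal, S100a4, Hjurp, Kcnk9, Gpr26 and Cpxm2 lie below 1 in 4 of 4 libraries, and Tac1 and Calca lie on both sides. Trpm8 and Foxp2 are shown although the rule constrains them.

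The limit on Trpm8 did not fall in a gap. At 1 to 1.5 CP10K, just inside, were 42, 58, 22 and 30 cells, and at 0.5 to 1 CP10K with a Foxp2 UMI, just outside, were 64, 104, 26 and 28 cells. Hjurp was at 896, 724, 274 and 365 CPM inside and 725, 820, 261 and 271 CPM outside, and Gpr26 at 166, 122, 150 and 149 and 149, 134, 101 and 124 CPM. Both genes were thus as plainly present outside the limit as inside it. Penk was lower outside (113, 76.3, 186 and 120 against 325, 118, 394 and 210 CPM) and Calca was higher (954, 934, 1251 and 695 against 224, 745, 264 and 220 CPM). Neurons with at least 1 CP10K of Foxp2 and no Trpm8 UMI went further in both directions, with 39.4, 29.5, 61.2 and 13.3 CPM of Penk and 1484, 1266, 1566 and 1874 CPM of Calca, and they held less Hjurp, 351, 273, 47.1 and 58.9 CPM.

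Members made up 3.38, 2.59, 2.42 and 2.19% of the cells that passed, with exact (Clopper-Pearson) 95% intervals of 2.83 to 3.99, 2.22 to 3.01, 1.93 to 3.0 and 1.77 to 2.69, which cover counting error only. The mean share was 2.99% ± 0.555 (SD, n = 2) in sham and 2.31% ± 0.161 (SD, n = 2) in CCI. Both CCI libraries lay below both sham libraries, for which an exact permutation test of 2 against 2 gives p = 0.333 (two-sided), the smallest it allows. With a limit of 2 CP10K of Trpm8 the shares were 1.305, 0.932, 1.29 and 1.11%, and the groups overlapped. Members were shallower than other neurons, with median depths of 28643.5, 21890, 24456 and 20679 against 46997, 33374, 57700 and 45025.5 UMIs. Of the barcodes, 1085 occurred in 2 or more libraries, 5 members had such a barcode, and 0 barcodes were members in more than 1 library.

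Few members passed the Sprr1a limit of 1.718 CP10K. In Male-CCI 1 of 81 members did (1.23%, 95% CI 0.03 to 6.69) and in Female-CCI 1 of 91 (1.1%, 95% CI 0.03 to 5.97). In sham it was 0 of 132 (95% CI 0 to 2.76, while the limit of 3 counts that a count of 0 allows is 2.27%) and 1 of 167 (95% CI 0.02 to 3.29). Among other neurons 1.93, 3.68, 54.85 and 52.77% passed, with lower bounds of 53.1% and 51.21% in CCI. All these intervals cover counting error over cells only and are no test between the sets. A cell that lost Trpm8 or Foxp2 after injury is no member by the rule. The shares of members thus describe cells in which both were still found, a condition that other neurons did not have to meet. With 1 Sprr1a-high member in each CCI library, no comparison of such members with sham was made.

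At least 1 Sprr1a UMI was nevertheless found in 0.8, 4.8, 45.7 and 45.1% of members. In SGC-like cells, at median depths of 6947, 6207, 6381 and 6375 UMIs, it was found in 2, 5.9, 25 and 29.8%. After each cell was thinned to 5000 UMIs, the shares were 0, 1.8, 11.1 and 8.8% of members, 2, 5.9, 18.8 and 25.5% of SGC-like cells and 2.1, 4.4, 59 and 58.5% of other neurons. At equal depth the share in members was below that in SGC-like cells in each library. The part of transcripts from other cells in it was not tested.

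Because members were selected on Trpm8, its change was read in cells selected without it, by at least 1 CP10K of Foxp2 and at least 1 Kcnk9 UMI. There were 184, 298, 126 and 130 such cells, with Trpm8 at 102, 70.96, 95.5 and 112 CPM. Only 40.8, 28.9, 39.7 and 41.5% of them reached 1 CP10K of Trpm8, and Calca was at 810, 817, 767 and 674 CPM. Most of these cells were thus not members, and the change is that of a mixed set. The groups overlapped (log2 change 0.27, SE 0.157, edgeR adjusted p = 0.345). The value depended on the sham library left out. Without Male-Sham the log2 change was 0.53 (edgeR adjusted p = 0.00298), and without Female-Sham it was 0.04, each about as far from the value of all 4 libraries. With only the Sprr1a-low cells of CCI, an alternative chosen after seeing the data, Trpm8 was at 118 and 121 CPM in CCI (log2 change 0.45, SE 0.141, edgeR adjusted p = 0.0828).

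The Sprr1a-high cells of this selection held little Trpm8. There were 18 of them in Male-CCI and 8 in Female-CCI, and 1 and 0 of them reached 1 CP10K of Trpm8 (95% CI 0.140 to 27.3% and 0 to 36.9%), against 45.4 and 44.3% of the Sprr1a-low cells. Trpm8 was at 11.6 and 13.9 CPM in the Sprr1a-high cells, from 12 and 4 UMIs. Tac1 was at 222 and 340 CPM against 1470 and 1712 CPM in Sprr1a-low cells, and Hjurp at 23.2 and 38.1 against 227 and 274 CPM. Gal, which injured neurons induce, was at 11110 and 10380 against 388 and 544 CPM. In both libraries Trpm8, Tac1 and Hjurp were lower and Gal was higher in the Sprr1a-high cells. The values come from few cells that were split by an injury gene, and no test over these libraries is given. In sham only 40.8 and 28.9% of the cells of this selection reached 1 CP10K of Trpm8. Whether the Sprr1a-high cells were of the Trpm8 class before injury was not tested.

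**Figure D3:**
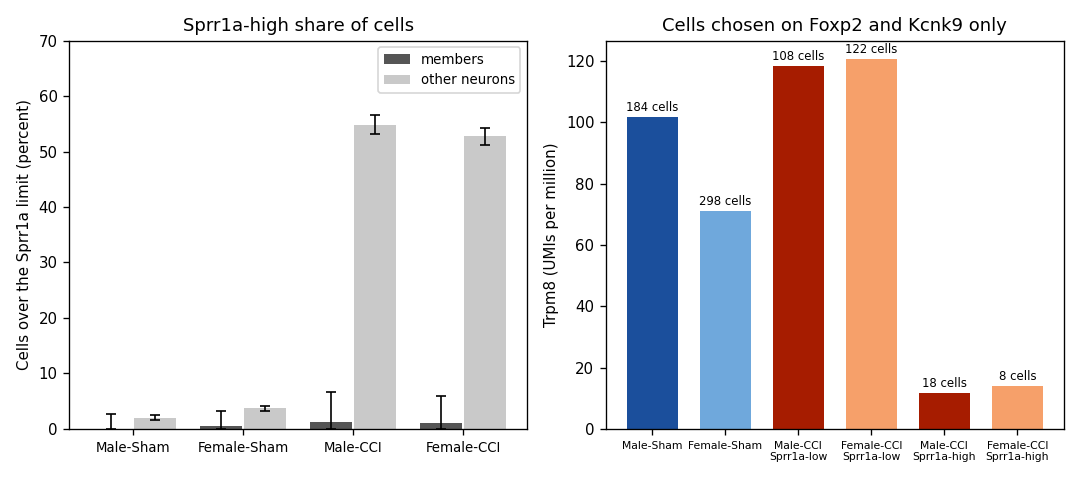
Left, percent of cells over the Sprr1a limit among members and among other neurons of each library, with exact 95% intervals as error bars. Right, Trpm8 in CPM in cells selected on Foxp2 and Kcnk9 without Trpm8. Members of CCI stay near the sham level at 1.23 and 1.1%, and Trpm8 is lowest in the Sprr1a-high cells of CCI at 11.6 and 13.9.

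Members that stayed Sprr1a-low after CCI were compared with sham members, in UMI sums over 132, 167, 80 and 90 cells, by edgeR's quasi-likelihood test. A gene was called when its Benjamini-Hochberg adjusted p was below 0.05 and its absolute log2 change above 0.5, and Trpm8, Foxp2 and Sprr1a were not counted because the rule used them. Of 10977 genes, 308 were called (2.81%), of which 155 rose (1.41%) and 153 fell (1.39%). DESeq2 called 91 genes, 90 of them among these. For each of the 308 genes the groups did not overlap in CPM, but this held for 50.1% of all genes tested. With the Sprr1a-high members of CCI kept, 310 genes were called (2.82%), 162 up (1.47%) and 148 down (1.35%). Summed counts alone do not tell fewer transcripts per cell from fewer cells with a transcript, so shares of cells are given beside some genes.

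Kcnk9 and Penk, the markers outside the rule, were not called. Kcnk9 was at 67.3, 74.7, 72.9 and 85.7 CPM (log2 change 0.13, SE 0.112, edgeR adjusted p = 0.5702). Penk was at 357, 198, 397 and 331 CPM (log2 change 0.37, SE 0.411, edgeR adjusted p = 0.744), with Female-Sham apart from the other 3 libraries, and without Male-Sham its log2 change was 0.83 (edgeR adjusted p = 5.32e-10). The published marker list of the Trpm8 class was chosen on these samples, so its counts are no independent evidence of a direction. Of its 23 genes 0 rose and 2 fell, Hpca and Fxyd2. Hpca, a neuronal calcium sensor, was at 574, 541, 372 and 330 CPM (log2 change -0.69, SE 0.0782, edgeR adjusted p = 1.06e-06). Fxyd2, a regulatory subunit of the sodium potassium pump, was at 124, 148, 60.05 and 48.5 CPM (log2 change -1.34, SE 0.117, edgeR adjusted p = 3.87e-08). Fxyd2 was more abundant in other neurons (5367, 4937, 3205 and 2940 CPM) and was also lower after CCI in SGC-like cells (240, 193, 68.4 and 110 CPM), and the part of transcripts from other cells in its change was not tested.

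Hjurp had the smallest adjusted p of the 20 genes named for their change. It was at 801 and 750 CPM in sham members and at 328 and 380 CPM in CCI members, without overlap (log2 change -1.16, SE 0.0797, edgeR adjusted p = 3.24e-10). It was detected in 99.2, 94.6, 98.8 and 97.8% of members, so its level per cell was lower while the share of cells with it was similar. Other neurons held far less, 38.2, 43.2, 18.5 and 19.0 CPM, and were lower after CCI as well, and the log2 change in members less theirs was -0.05 (SE 0.0740, edgeR adjusted p = 0.8902), which was not called. In cells selected on Foxp2 and Kcnk9 without Trpm8, most of which were not members, Hjurp had a log2 change of -1.52 in Sprr1a-low cells (SE 0.0892, edgeR adjusted p = 7.05e-11). With all CCI cells of this selection 545 of 11997 genes were called (4.54%), 332 up (2.77%) and 213 down (1.78%). Trpm8, its neighbour, was at 191, 188, 226 and 261 CPM in members, a level that the rule constrains.

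The other genes that fell have varied roles. Usmg5, a small subunit of the mitochondrial ATP synthase, was at 908, 979, 532 and 426 CPM (log2 change -1.004, SE 0.0859, edgeR adjusted p = 8.87e-08), and was also lower after CCI in other neurons (716, 764, 488 and 404 CPM) and in SGC-like cells (247, 320, 188 and 165 CPM). Lypd1, a Ly6-type protein that modulates nicotinic receptors, was at 35.8, 38.8, 21.1 and 13.2 CPM (-1.13, edgeR adjusted p = 0.00033). Lrrc8b, a subunit of volume-regulated anion channels, was at 33.2, 39.8, 16.1 and 21.3 CPM (-0.99, edgeR adjusted p = 0.00107), and SGC-like cells held more, 49.9, 54.3, 41.9 and 51.7 CPM, also lower after CCI than in the sham library of the same sex. Lack of overlap between the groups was a condition for naming these genes. Without 1 library at a time their log2 changes were -1.17 to -0.86 (Usmg5), -1.52 to -0.85 (Lypd1) and -1.21 to -0.79 (Lrrc8b). Th, the rate-limiting enzyme of catecholamine synthesis, was at 25.4, 20.6, 12.8 and 9.52 CPM (-1.06, edgeR adjusted p = 0.00352), and without Female-CCI its adjusted p was 0.0741. Angpt4, an angiopoietin, was at 15.98, 29.4, 9.11 and 9.52 CPM (-1.30, edgeR adjusted p = 0.0154), a call that was lost without Female-Sham, Male-CCI or Female-CCI (adjusted p = 0.1501, 0.257 and 0.281). Hs3st1, a heparan sulfate sulfotransferase, was at 30.01, 38.5, 16.1 and 19.5 CPM (-0.97, edgeR adjusted p = 0.00181), and Cyr61, a matricellular protein, at 28.1, 43.2, 12.8 and 17.7 CPM (-1.25, edgeR adjusted p = 0.00249, but adjusted p = 0.08597 without Male-CCI). SGC-like cells held more of both, at levels that were also lower after CCI than in the sham library of the same sex, with 104, 157, 66.2 and 100 CPM of Hs3st1 and 559, 1331, 362 and 698 CPM of Cyr61, and with members of at least 1 CP10K of the satellite glial gene Fabp7 left out Hs3st1 stayed called (-1.09, edgeR adjusted p = 0.00559) while Cyr61 had too few counts to be tested.

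Dcn encodes the proteoglycan decorin, known from fibroblasts, and had the largest negative log2 change of the genes named, from 45.99 and 34.9 CPM to 2.899 and 3.17 CPM (log2 change -3.75, SE 0.276, edgeR adjusted p = 8.15e-10). A single member held 157 of 190 UMIs in Male-Sham and another 109 of 134 in Female-Sham, and 8 and 10 sham members had any. In each sham library most of the Dcn UMIs thus came from 1 cell. Other neurons also held Dcn, at 76.2, 94.6, 100 and 86.4 CPM. When members were chosen after thinning, the log2 change was -0.12. Of 13 fibroblast and endothelial markers, Cldn5, Flt1, Cdh5, Acta2 and Ly6c1 were at 0 in all members.

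Among the genes that rose, Fam210b, a mitochondrial membrane protein, was at 7.504, 8.33, 28.99 and 24.5 CPM (log2 change 1.73, SE 0.227, edgeR adjusted p = 8.56e-06). Nme7, a nucleoside diphosphate kinase of the gamma-tubulin ring complex, was at 13.8, 12.8, 40.2 and 48.1 CPM (log2 change 1.70, SE 0.1802, edgeR adjusted p = 4.44e-07), in 34.8, 25.7, 60 and 54.4% of members. Sbno2, a transcriptional coregulator, was at 29.3, 39.3, 76.6 and 79.4 CPM (1.16, edgeR adjusted p = 2.28e-06), and Rnf122, a ubiquitin ligase, at 10.9, 9.89, 24.4 and 24.5 CPM (1.20, edgeR adjusted p = 0.000579). Lack of overlap between the groups was a condition for naming them. Without 1 library at a time the log2 changes were 1.61 to 1.83 (Fam210b), 1.56 to 1.83 (Nme7), 0.94 to 1.40 (Sbno2) and 1.15 to 1.25 (Rnf122). Flrt3, an adhesion molecule, was at 12.6, 9.89, 21.9 and 23.6 CPM (0.98, edgeR adjusted p = 0.00522), with an adjusted p of 0.0503 without Female-Sham and 0.0673 without Female-CCI. Snx29, a sorting nexin, was at 9.198, 11.7, 24.9 and 15.4 CPM (0.93, edgeR adjusted p = 0.0195), with an adjusted p of 0.126 without Male-Sham and 0.414 without Male-CCI. With members rich in the satellite glial gene Fabp7 left out, Flrt3 and Snx29 were not called either (adjusted p = 0.128 and 0.183 by edgeR).

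Several of the genes named that rose were also set beside SGC-like cells, without a count, since the share over all genes there was not computed. Flrt3 was at 22.3, 12.1, 26.5 and 48.5 CPM there. Sbno2 was at 19.7, 51.3, 59.6 and 51.7 CPM, nearly alike in Female-Sham and Female-CCI. Snx29 was at 3.94, 3.02, 4.41 and 6.47 CPM, at or under the level of 3 UMIs in each library. A further 4 genes follow. Serpina3n, a secreted inhibitor of serine proteases, was at 35.6, 52.6, 104 and 114 CPM in members (1.28, edgeR adjusted p = 6.08e-05) and at 127, 187, 640 and 394 CPM in SGC-like cells. Ifitm3, an interferon-induced membrane protein, was at 50.1, 43.7, 101 and 107 CPM (1.11, edgeR adjusted p = 9.67e-08) and at 920, 1271, 2542 and 1714 CPM there. Neat1, a nuclear long noncoding RNA, was at 25.4, 16.1, 40.6 and 49.4 CPM (1.08, edgeR adjusted p = 0.000514) and at 224, 193, 371 and 359 CPM there. Itgb8, an integrin subunit, was at 11.6, 8.33, 21.5 and 25.4 CPM (1.19, edgeR adjusted p = 0.00115) and at 400, 423, 611 and 511 CPM there. SGC-like cells held these 4 genes and Flrt3 at higher levels than members in every library, and the part of their transcripts in the changes was not tested. With the members rich in Fabp7 left out in the same way, Ifitm3 was no longer called (log2 change 0.92, edgeR adjusted p = 0.249), Serpina3n and Neat1 were (1.13 and 1.66), and Itgb8 had too few counts to be tested.

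**Figure D4:**
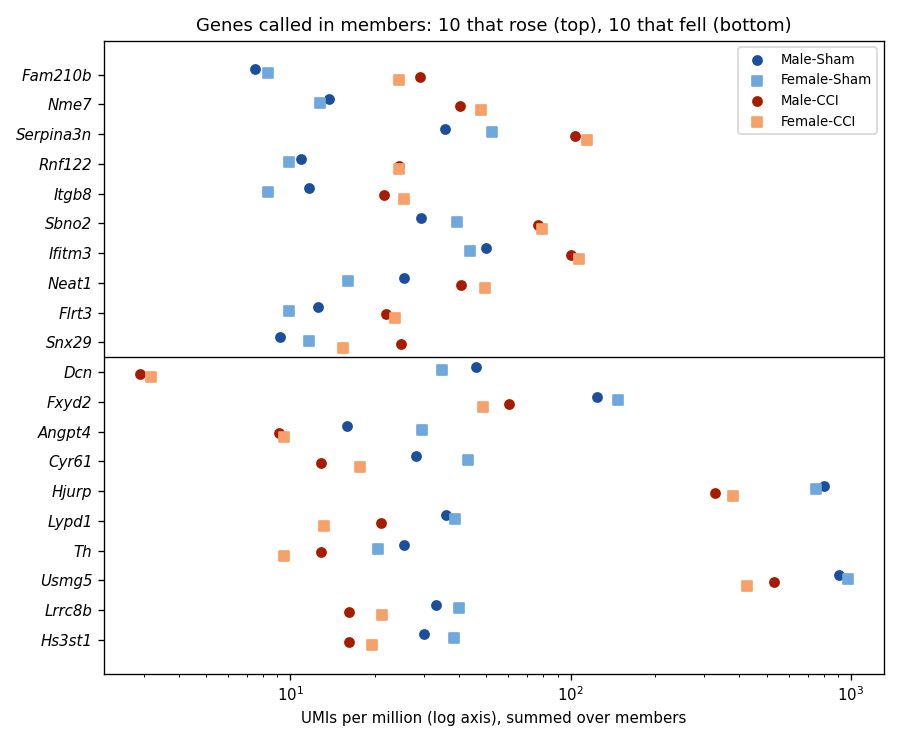
Levels of the 10 genes that rose (top) and the 10 that fell (bottom) with the largest changes, in CPM summed over the members of each library on a log axis (circles male, squares female). For each gene both CCI points lie on the same side of both sham points, which was a condition of the choice. The genes run from Fam210b at 7.504 and 8.33 in sham and 28.99 and 24.5 in CCI to Dcn at 45.99 and 34.9 and 2.899 and 3.17.

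Transcripts of other cell types were followed with the same sums. The 16 satellite glia markers came to 4361, 3637, 4605 and 4317 CPM in members, 1884, 2192, 1409 and 1470 CPM in other neurons and 141617, 144572, 120895 and 139261 CPM in SGC-like cells. Members thus held more of them than other neurons in each library, with no step between sham and CCI, and none of the 14 tested was called. Fabp7, one of them, marked the 36.4, 32.3, 33.3 and 30.8% of members with at least 1 CP10K of it (other neurons 26.1, 31.2, 24 and 24.2%), in which Apoe, a lipid carrier of glia, was at 8410, 8255, 9382 and 10130 CPM against 20.6, 29.99, 18.4 and 24.8 CPM in the remaining members. Gfap was at 0 in all members. None of 4 Schwann cell markers and 15 neuron markers was called. The 15 immune markers came to 1.7, 1, 2.5 and 47.2 CPM, with Female-CCI apart (Cd74 had 24 UMIs there), and none passed the filter on low counts. Of 28 markers of other DRG neuron classes tested, 2 were called in members (7.14%, against 2.81% of all genes), Nts of the NP1 class and Th of the C-low-threshold mechanoreceptors. The 15 markers of the other peptidergic classes summed to 3045, 3579, 2373 and 2856 CPM in members against 11888, 12901, 12224 and 13642 CPM in other neurons.

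Genes were then followed by list, beside the 155 rises and 153 falls among all genes tested and a median log2 change of 0.01. Among thermosensory channels and their partners, 8 were tested and none was called. Trpv1, the heat and capsaicin receptor, was at 17.2, 33.3, 30.6 and 32.2 CPM (0.30, edgeR adjusted p = 0.644). Trpa1, the irritant receptor, was at 0.968, 1.56, 0.828 and 5.44 CPM, too low to test, and Trpc5, a cold sensor of teeth, had no UMI in members. Pirt was at 442, 449, 413 and 435 CPM (-0.10, edgeR adjusted p = 0.508), and Asic1, an acid-sensing channel, at 106, 114, 133 and 151 CPM (0.33, edgeR adjusted p = 0.0391), under the limit on size. Members thus had little Trpv1 and hardly any Trpa1 beside ample Pirt.

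Potassium, HCN and calcium channels gave no call, in 6 two-pore and 22 voltage-gated potassium, 4 HCN and 12 calcium channel genes tested. The median log2 changes were -0.07, 0.10, 0.00 and 0.17. Kcnk2 (TREK-1) was the most abundant two-pore channel at 166, 167, 154 and 149 CPM. Kcna4 and Kcnb2 had log2 changes of 0.47 and 0.46 at edgeR adjusted p of 0.0139 and 0.0237, under the limit on size, and without Female-CCI Kcna4 had an adjusted p of 0.306. Of 11 sodium channel genes, Scn3a, a channel of embryonic neurons, rose (28.3, 27.6, 48.04 and 52.1 CPM, log2 change 0.81, SE 0.148, edgeR adjusted p = 0.000686) and Scn4b, a beta subunit, fell (46.2, 40.6, 28.2 and 29.5 CPM, log2 change -0.62, SE 0.155, edgeR adjusted p = 0.0122). Scn4b was no longer called when Male-Sham, Male-CCI or Female-CCI was left out (edgeR adjusted p = 0.0819, 0.0749 and 0.0536).

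Of 12 neuropeptide genes tested, Vgf and Nts rose and 0 fell. Vgf, a secreted protein induced by neurotrophins, was at 1.94, 5.99, 18.6 and 21.3 CPM (log2 change 2.32, SE 0.335, edgeR adjusted p = 7.50e-05). It was detected in 6.1, 9.6, 26.2 and 22.2% of members, and after thinning to 5000 UMIs in 1.5, 2.4, 5 and 10% of members against 0, 0, 4.7 and 2.1% of SGC-like cells. The thinned share was nearly that of SGC-like cells in Male-CCI and above it in Female-CCI. Nts, neurotensin, was at 0.968, 4.94, 13.7 and 15.4 CPM (log2 change 2.28, SE 0.423, edgeR adjusted p = 0.00202, but adjusted p = 0.0788 without Female-CCI). Its thinned shares were 0.8, 3, 6.2 and 7.8% of members and 1, 2, 10.9 and 21.3% of SGC-like cells. In both CCI libraries the share was thus smaller in members, and the part of transcripts from other cells was not tested. Tac1, the most abundant peptide gene of the class, was at 2262, 2272, 1624 and 1945 CPM (log2 change -0.37, SE 0.0741, edgeR adjusted p = 0.00249), under the limit on size, and without Male-CCI its adjusted p was 0.0524. Gal was at 203, 293, 164 and 368 CPM and Calca at 212, 582, 138 and 247 CPM, without a call.

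Of 25 transcription factors tested, 1 rose and 2 fell. Ebf3, an early B-cell factor of neurons, was at 53.7, 46.1, 83.2 and 75.3 CPM (log2 change 0.64, SE 0.117, edgeR adjusted p = 0.000716). Rxrg, a retinoid X receptor, fell (49.6, 49.2, 31.9 and 32.6 CPM, -0.64, edgeR adjusted p = 0.00522), as did the ETS factor Etv1 at low counts (7.504, 3.38, 0.828 and 1.36 CPM, -2.33, edgeR adjusted p = 0.0182). Isl1 and Pou4f1, which all sensory neurons share, were at 361, 317, 405 and 356 CPM and 179, 193, 232 and 209 CPM without a call, and Tshz2 was at 651, 645, 803 and 797 CPM (0.28, edgeR adjusted p = 0.0127), under the limit on size. None of 20 receptors was called.

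Of 33 injury and regeneration genes tested, 10 rose, 0 fell and 29 had a log2 change above 0, with a median of 0.35. The list holds genes that the study named for its CCI-induced clusters in these samples, among them Sox11 and Ecel1. Its counts are therefore no independent evidence of a direction. Sox11, a transcription factor of regenerating neurons, was at 45.99, 48.7, 98.6 and 83.4 CPM (log2 change 0.92, SE 0.115, edgeR adjusted p = 4.96e-06). Jun was at 230, 219, 324 and 362 CPM (0.59, edgeR adjusted p = 3.64e-05), and Atf3, the injury-induced partner of Jun, at 51.1, 64.8, 88.2 and 79.4 CPM (0.51, edgeR adjusted p = 0.00938, but adjusted p = 0.191 without Male-Sham and 0.1003 without Male-CCI). Of the others that rose, Nts had smaller thinned shares in members of both CCI libraries than in SGC-like cells. For Ecel1 these shares were 1.2 and 1.1% against 3.1 and 2.1%, from too few cells to rank the groups. Without thinning, Ecel1 was found in 8.8 and 10% of members and in 3.1 and 2.1% of SGC-like cells of CCI. The part of transcripts from other cells was not tested for either gene. Flrt3, Chl1, Serpinb1a, Cdkn1a and Smad1 also rose. Gap43, a growth cone protein, was at 303, 315, 440 and 441 CPM (0.48, edgeR adjusted p = 0.000144), just under the limit on size.

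These levels were set beside Sprr1a-high neurons of the same CCI libraries, which had 890 and 876 CPM of Sox11, 1146 and 1185 CPM of Atf3 and 3107 and 3076 CPM of Gap43. The level in members of each CCI library less the mean of the sham libraries was 5.76% and 4.12% of that level for Sox11, 4.23% and 4.30% for Gap43, 3.65% and 2.25% for Chl1, 1.03% and 2.16% for Serpinb1a and 0.591% and 0.646% for Nts. In SGC-like cells the same difference was 1.24% and 1.11% for Sox11, 0.600% and 2.61% for Gap43, 21.4% and 19.1% for Chl1, 2.82% and 5.36% for Serpinb1a and 1.62% and 2.49% for Nts. For Sox11 and Gap43 it was larger in members than in SGC-like cells of both libraries, as it was for Cdkn1a and Smad1. For Chl1, Serpinb1a and Nts it was smaller in members of both libraries, and for Jun, Atf3, Flrt3 and Ecel1 it lay on either side.

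Nuclear genes of oxidative phosphorylation had the most falls of the lists. Of 83 tested, 17 fell, 0 rose and 8 had a log2 change above 0, with a median of -0.29. Ndufa1 of complex I was at 464, 522, 306 and 306 CPM (-0.71, edgeR adjusted p = 1.34e-06) and Uqcr11 of complex III at 1005, 1112, 709 and 654 CPM (-0.66, edgeR adjusted p = 8.42e-07). Cox7c of complex IV was at 1774, 1864, 1226 and 1177 CPM (-0.63, edgeR adjusted p = 3.58e-07) and Atp5e of the ATP synthase at 978, 1072, 673 and 654 CPM (-0.66, edgeR adjusted p = 7.39e-07). Subunits of complexes I, III and IV and of the synthase were thus lower in both CCI libraries. The sum over the list was 61668, 63938, 49940 and 49738 CPM in members. It was lower after CCI also in other neurons, 48464, 50267, 44019 and 43148 CPM, and in SGC-like cells, 31861, 31084, 25664 and 25916 CPM. For a difference between members and other neurons 0 of 87 genes were called. A call needed an absolute log2 difference above 0.5, which is larger than the median change of -0.29 in members. The count therefore does not show that both sets of neurons fell alike. The sum was thus lower in both CCI libraries in glia and in both sets of neurons, and the part of library preparation in it was not tested.

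Ribosomal protein genes had a median log2 change of 0.00, and of 76 tested Rps12 and Rpl17 rose and Rpl41 and Rps28 fell. Of 28 genes of axon growth and the cytoskeleton, Tmsb10, an actin-binding thymosin, fell (1471, 1722, 1150 and 1143 CPM, -0.51, edgeR adjusted p = 6.91e-05). Of 25 genes that respond to tissue dissociation, Jun and Atf3 rose, and Fos, an immediate early gene, was at 308, 310, 400 and 326 CPM (0.20, edgeR adjusted p = 0.176).

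**Figure D5:**
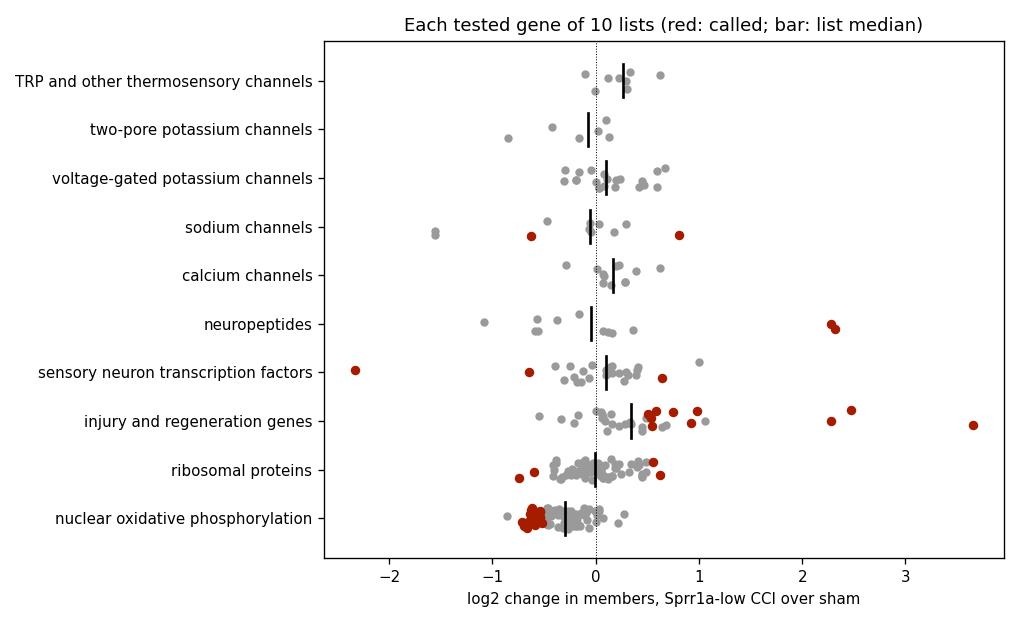
Log2 change of each tested gene of 10 lists in Sprr1a-low members of CCI relative to sham members, with called genes in red and the median of the list as a black bar. Genes of oxidative phosphorylation lie mostly left of 0 (median -0.29) and injury and regeneration genes mostly right of it (median 0.35). The injury list holds genes that the study named for its CCI-induced clusters in these samples.

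Whether members changed unlike the other neurons of the same libraries was tested as the interaction of cell set and surgery in one edgeR fit with each library as a block. Of 15951 genes, 103 were called (0.646%), 53 with the larger log2 change in members (0.332%) and 50 with the smaller (0.313%). DESeq2 called 30. The other neurons are a mix of classes, and the part of their makeup was not tested. Sham kept its Sprr1a-high cells in this fit while CCI did not, and with these left out of sham too, an alternative chosen after seeing the data, 109 genes were called.

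Lrrc8b and Lypd1, which fell in members, changed less in other neurons. Lrrc8b was at 84.7, 92.0, 86.5 and 88.5 CPM in other neurons, a log2 difference of -0.99 (SE 0.172, edgeR adjusted p = 1.14e-05), and Lypd1 at 16.6, 18.4, 13.7 and 17.7 CPM, a difference of -0.98 (SE 0.192, edgeR adjusted p = 0.000239). Without Female-CCI the difference of Lypd1 was -0.51 (edgeR adjusted p = 0.452). Ebf3, at 52.4, 51.04, 51.2 and 48.2 CPM in other neurons, had a larger change in members by 0.69 (SE 0.122, edgeR adjusted p = 1.87e-05), and Gfra2, the receptor of neurturin, at 59.5, 52.8, 57.98 and 63.9 CPM in members and 124, 118, 84.8 and 91.9 CPM in other neurons, had a difference of 0.54 (SE 0.1204, edgeR adjusted p = 0.00166). Tac1 was at 2661, 3000, 2597 and 3267 CPM in other neurons, and its difference of -0.43 (SE 0.0481, edgeR adjusted p = 1.47e-13) was under the limit on size.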

How the data were processed

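Single cells of 4 10x Genomics 3' libraries were measured. The authors deposited unnormalized UMI counts per gene and barcode, made with Cell Ranger (version 2.1.1 in the submitters' processing notes, 3.0.2 in the headers of the matrices) on mm10. The members and the gene lists were chosen with earlier results of these data known. Cells were filtered as stated in the report, with no doublets removed, since the Scrublet caller marked 2, 121, 0 and 0 barcodes and so did not work in most libraries. Neurons had at least 50 CP10K of summed neuron markers, and SGC-like cells had fewer and at least 500 CP10K of satellite glia markers, limits set after the data were seen. CP10K is counts per 10000 UMIs of a cell.

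UMIs of each set of cells were added up by library, with 2214908 to 4131299 UMIs over all members, and the sums were tested with edgeR 4.0.16 (quasi-likelihood, robust, filterByExpr, TMM) or DESeq2 1.42.0 as the alternative. SE is that of the log2 change. With 2 libraries a group, 1 of each sex, and no sex term in the main fit, a p-value measures a spread in which sex, pool and preparation are mixed. In simulated counts with 200 changed genes, the CCI comparison in edgeR recovered 80.0% of log2 changes of 1 and 96.4% of those of 2 (DESeq2 51.1% and 80.9%), and the comparison of changes with other neurons 60.4% and 66.0% (DESeq2 48.1% and 58.5%). The genes named for their change are the 10 that rose and the 10 that fell most in log2 among called, annotated genes with at least 20 CPM in the higher group and no overlap between groups, and further genes come from the lists. The planned comparisons of Sprr1a-high members could not be run because each CCI library held 1 such cell. GENCODE vM21 and RefSeq gave positions and promoters. Scripts used R 4.3.3, Python 3.11.15, scanpy 1.11.5 and scipy 1.17.1.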

Additional observations from a re-analysis of the deposited data

Results flagged for a closer look

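For 103 genes the change after CCI differed between members and other neurons by the interaction test of edgeR, among them these genes. With a larger log2 change in members stood Fam210b by 0.8, Itgb8 by 1.03, Ifitm3 by 0.57, Neat1 by 0.64, Vgf by 1.35, Nts by 2.25, Ebf3 by 0.69 and the potassium channel gene Kcna4 by 0.53. Dcn, Lypd1 and Lrrc8b had smaller log2 changes in members, with differences of -3.92, -0.98 and -0.99. In each sham library most Dcn UMIs of members came from a single cell, which leaving out a library does not test. Ebf3, Lrrc8b, Dcn and Nts stayed called whichever library was left out, whereas Fam210b was not without Male-Sham, Female-Sham or Male-CCI (0.72, 0.88 and 0.54). Itgb8 and Neat1 were not called without Female-Sham (0.80 and 0.41) or Female-CCI (0.87 and 0.46). Ifitm3 was not called without Female-Sham (0.32), Vgf without Male-Sham (0.80), and Lypd1 and Kcna4 without Female-CCI (-0.51 and 0.38). With Sprr1a-high cells left out of sham too, Nts had a difference of 0.55 (edgeR adjusted p = 0.621) and Fam210b of 0.73 (edgeR adjusted p = 0.0833), and the other genes named here stayed called.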

How the results depend on the processing

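DESeq2 called 91 genes in Sprr1a-low members, 107 in all members and 30 for the difference from other neurons, against 308, 310 and 103 by edgeR. A Trpm8 limit of 2 CP10K, which leaves fewer members, gave 121 calls in either comparison, and a split at any Sprr1a UMI gave 58 for the difference. The genes called changed as well as their number. Of the 308 calls, 85 were kept at 2 CP10K of Trpm8 (27.6%), 142 after thinning (46.1%) and 178 without members rich in Fabp7 (57.8%). Above 10000 UMIs 277 were kept (89.9%), and with the highest doublet scores left out 286 (92.9%). Leaving out 1 library also changed which genes were called. Without 1 library at a time the calls numbered 210 to 375, 201 to 365 (fewest without Female-CCI) and 63 to 119 (fewest without Female-Sham). Trpm8 in cells selected without it had log2 changes of 0.0409 to 0.528 without 1 library. The share of members in CCI relative to sham was 0.773, 1.071 at 2 CP10K of Trpm8, 0.6809 at 0.5 CP10K, 0.8821 at 1 CP10K of Foxp2, and 0.683 to 0.89 without 1 library. The mean Sprr1a-high share of CCI members, 1.17%, was 0 with the highest doublet scores left out, at 2 CP10K of Trpm8 or at the higher Sprr1a limit, 0.926% without members rich in Fabp7, 4.238% at 0.5 CP10K of Trpm8, 1.439% at 1 CP10K of Foxp2, 0.633% above 10000 UMIs, 45.367% with any Sprr1a UMI, and 1.1 to 1.24% without 1 library.

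Signs turned for Kcnk9 without members rich in Fabp7 (-0.0149), for Penk at 2 CP10K of Trpm8 (-0.0807) and after thinning (-0.1053), and for Nts at 0.5 CP10K of Trpm8 (-0.1275). The difference from other neurons turned for Ifitm3 without members rich in Fabp7 (-0.2613) and for Ifitm3 and Neat1 with any Sprr1a UMI (-0.0198 and -0.362). The causes were not tested. Over 38 genes and their alternatives, values were compared by direction and by the limit on adjusted p alone, without the limit on size. Of 813 values, 7 turned, 95 no longer met the limit on adjusted p, 2 newly met it and 709 were counted as unchanged. Genes under the limit on size, such as Tac1 and Gap43, were included, so these are not counts of calls.

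Replicate numbers stand for sex. Male minus female differences in sham and in CCI had a correlation of 0.087 over 7154 genes. Each difference sets a single male pool against a single female pool, so this value does not show what libraries of the same sex share. With sex as a replicate block 442 genes were called in Sprr1a-low members, all 308 among them, and 429 in all members. Trpm8 in cells selected without it then had a log2 change of 0.28 (edgeR adjusted p = 0.216), and Penk in members of 0.40 (edgeR adjusted p = 3.11e-06). The alternatives that left Sprr1a-high cells out of sham in the comparison with other neurons, or out of CCI in the cells selected without Trpm8, were chosen after seeing the data. Changes were recovered only in part in simulated counts at this depth, so genes not called are not shown to be unchanged.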
